A study of Mus musculus with 6 samples.

Results

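The mitosis and cytokinesis genes described here are 44 named genes that carry a cell through division, from entry into mitosis to the final cut between daughter cells. Each was measured by the probe sets that the array's annotation gives to 1 gene symbol, and where a gene had several, the brightest one on average over the 6 arrays stood for it. By this rule 43 of the 44 genes were measured, among 18193 genes in all; Ccnb1 is not analysed here. RNA of whole livers was hybridised to Affymetrix mouse arrays at 3 stages: before pregnancy, at day 21 of pregnancy and at day 7 postpartum, with 2 biological replicates per stage and 1 array each. All mice at every stage were C57BL/6 animals transgenic for CYP2D6, a human drug-metabolising cytochrome P450, and no group without the transgene is analysed here. The labels used here state neither the age of the mice nor their earlier litters nor the hour at which livers were taken. Values are log2 levels as deposited, and each array's median over all probe sets lay between 5.09 and 5.15.

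A dividing cell activates Cdk1 with A- and B-type cyclins, condenses its chromosomes, and attaches them through kinetochores to the microtubules of the spindle. The spindle checkpoint restrains Cdc20, the activator of the anaphase-promoting complex, until every chromosome is attached. Cdc20 then activates the complex, which starts chromosome separation and then cytokinesis. Hepatocytes of an adult liver rarely divide, but they can re-enter the cycle when the liver grows, and rodent hepatocytes that skip cytokinesis become polyploid. The maternal liver of rodents is known to enlarge during pregnancy.

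At day 21 of pregnancy and at day 7 postpartum, the 2 arrays of the stage differed in these genes more than they did in most genes. This bears on every comparison below. Before pregnancy the median gap (replicate 1 minus replicate 2) was 0.14 on the log2 scale. At day 21 of pregnancy, replicate 1 was higher than replicate 2 in 40 of 43 genes, with a median gap of 1.02. At day 7 postpartum the gap ran the other way, with replicate 2 higher in 42 of 43 genes and a median gap of -0.81. The median size of the gap, whatever its sign, was 0.15 before pregnancy, 1.02 in pregnancy and 0.81 postpartum over the 43 genes. Over all genes it was 0.12 before pregnancy, 0.14 in pregnancy and 0.12 postpartum. Cdc20 had the widest gap in pregnancy, 2.39, and Cenpf the widest postpartum, 1.46. Postpartum replicate 2 held the highest value of the 6 arrays for 37 of 43 genes, against 18.1% of all genes. Pregnancy replicate 2 held the lowest value for 32 of 43, against 20.4% of all genes.

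**Figure D1:**
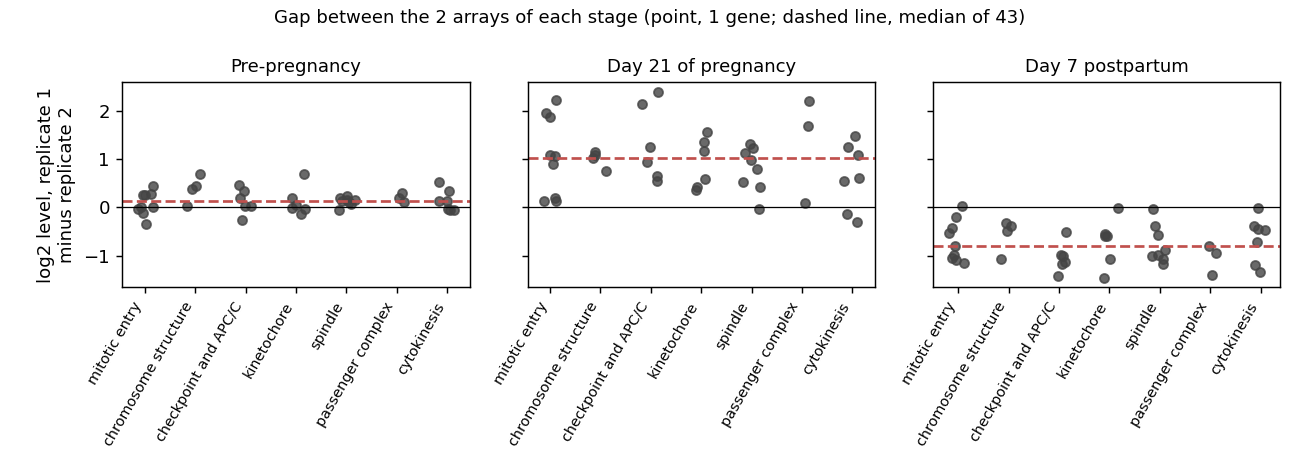
Gap between the 2 arrays of each stage, as the log2 level of replicate 1 minus that of replicate 2 (vertical axis), for the 43 genes sorted by role (horizontal axis); each point is a gene and the dashed line the median. The median gap is 0.14 before pregnancy, 1.02 at day 21 of pregnancy and -0.81 at day 7 postpartum.

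The median log2 level over the 43 genes was 5.60 and 5.50 on the pre-pregnancy arrays, 6.14 and 5.12 at day 21 of pregnancy, and 6.23 and 7.10 at day 7 postpartum. The same median over all genes stayed between 6.31 and 6.40. The median was thus highest on both postpartum arrays, while the pregnancy arrays lay on either side of the pre-pregnancy ones. Postpartum replicate 2 exceeded both pre-pregnancy arrays in 38 genes and was below both in 0, and postpartum replicate 1 exceeded both in 27 and was below both in 6. Pregnancy replicate 1 exceeded both pre-pregnancy arrays in 26 genes and was below both in 9, whereas pregnancy replicate 2 exceeded both in 4 and was below both in 32. How often this held over all genes was not counted, so these counts describe the members only. In 22 of 43 genes the profile over the 6 arrays correlated at 0.9 or more with the mean profile of the other members, a description over arrays that share their stage effects. The 4 genes with a correlation below 0.5 were Kif23, Kif2c, Spc25 and Ncaph. As whole livers were measured, more dividing cells and more of these RNAs per cell cannot be told apart.

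**Figure D2:**
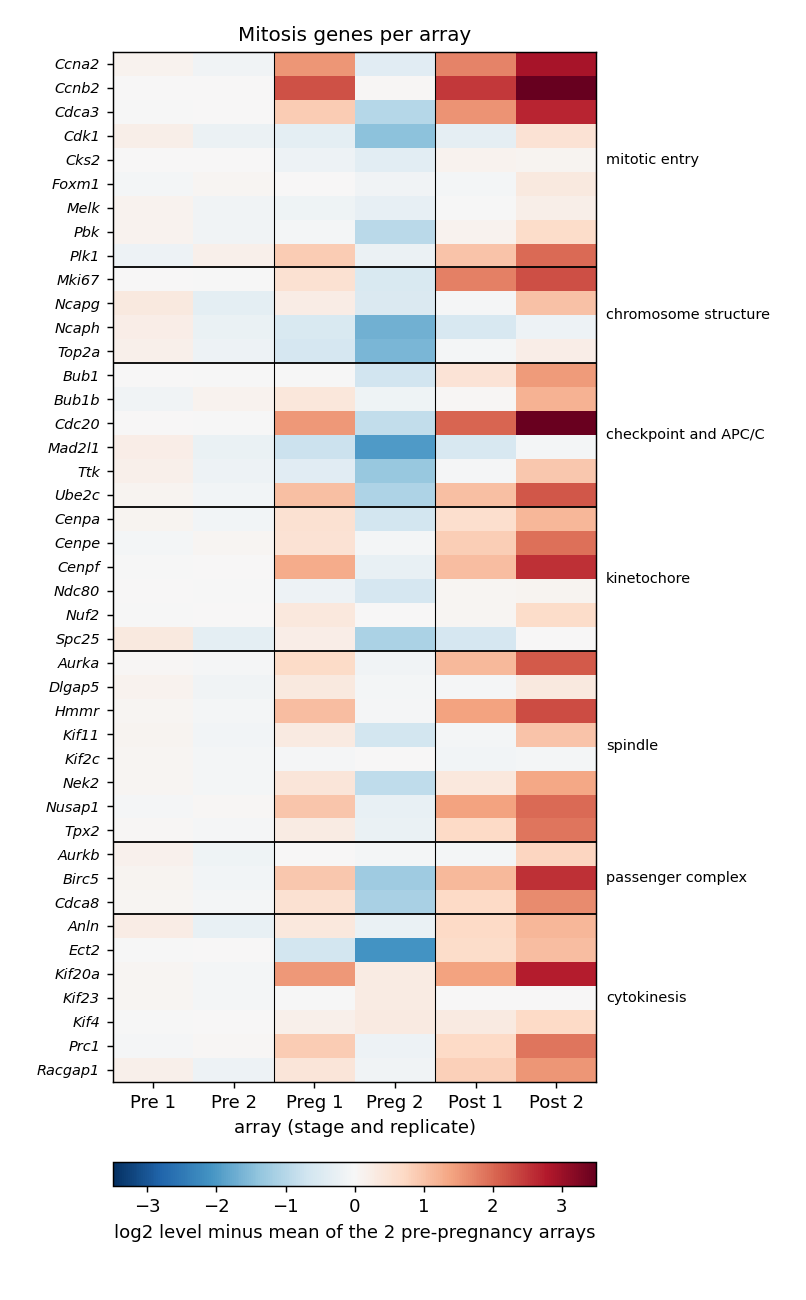
Log2 level of each of the 43 genes (rows, grouped by role) on each of the 6 arrays (columns), as the difference from the mean of the 2 pre-pregnancy arrays. Red is higher and blue lower. Postpartum replicate 2 is the reddest column and holds the highest value for 37 genes, against 18.1% of all genes. Pregnancy replicate 2 is the bluest and holds the lowest value for 32, against 20.4% of all genes.

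Day 7 postpartum was set against pre-pregnancy to ask which genes differ after birth from their starting level. The 8 genes that passed the test were all higher postpartum: the cyclin Ccnb2, the proliferation marker Mki67, the kinetochore motor Cenpe, the spindle genes Aurka, Nusap1 and Hmmr, and the cytokinesis genes Kif20a and Racgap1. These are 8 of 43 members (18.6%) called by limma at an adjusted p under 0.05, where 7.66% of all 18193 genes were called, 3.91% higher and 3.75% lower. No member (0) was called lower. The median difference over the 43 genes, postpartum minus pre-pregnancy, was 0.865 on the log2 scale, beside 0.025 over all genes. In size, 18 of the 43 were higher by 1 or more, and the share of all genes higher by as much was not counted. In 27 genes (62.8%) both postpartum arrays lay above both pre-pregnancy arrays, which held for 30% of all genes. The calls rested on few arrays, being lost without postpartum replicate 2 or either pre-pregnancy array, where calls over all genes fell as well. Those of Ccnb2 and Nusap1 were each also lost with another array left out. The median difference was 0.485 without postpartum replicate 2. The log2 level of Gapdh's 3′ probe set minus that of its 5′ one, which grows as RNA is shorter, was -0.02 and 0 in the pre-pregnancy livers, 0.09 and 0.27 at day 21, and 0.29 and 0.30 postpartum; for Actb it was 1.27 and 1.19, then 1.06 and 1.21, then 1.44 and 1.43. Gapdh's value was thus higher on both postpartum arrays than before pregnancy, as the called genes were, and the part of RNA quality in the results was not tested. The p-values rest on the spread between the 2 livers of each stage, which the labels call biological replicates. That spread was pooled over all stages, pregnancy included, and moderated with that of all genes. It is therefore not the spread of the compared stages alone.

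Day 7 postpartum was also set against day 21 of pregnancy, to ask what changes between late gestation and the first week after birth. Mki67 and Ect2, the exchange factor that switches on RhoA for cytokinesis, were the 2 members called, and both were higher postpartum. They are 4.65% of the 43 genes, beside 3.29% of all genes called, 2.41% higher and 0.879% lower, so their share lies near that of all genes. In size, 23 genes were higher by 1 or more on the log2 scale and 0 were lower by as much. The share of all genes that differed by as much was not counted. The median difference, postpartum minus pregnancy, was 1.055 beside -0.01 over all genes. In 26 genes (60.5%) both postpartum arrays lay above both pregnancy arrays, against 25.1% of all genes. Kif2c was the 1 gene with both postpartum arrays below both pregnancy arrays, against 25% of all genes, with a difference of -0.06 on the probe set used and -0.17 to 1.06 on its 3 others. Without pregnancy replicate 1 the median difference was 1.535, and without pregnancy replicate 2 it was 0.52. The calls were lost without postpartum replicate 2 or either pre-pregnancy array, and each was also lost with another array left out. Calls over all genes became fewer with any array left out. The difference then ran between 1.46 and 2.54 for Mki67 and between 1.495 and 2.965 for Ect2. This comparison shares its postpartum arrays with the preceding one.

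Day 21 of pregnancy was set against pre-pregnancy to ask what late gestation changes in the liver. Mad2l1, the checkpoint protein that binds and restrains Cdc20, was the 1 member called, and it was lower in pregnancy. This is 2.33% of the 43 genes, beside 13.7% of all genes called, 8.25% lower and 5.46% higher. The median difference, pregnancy minus pre-pregnancy, was -0.01 over the 43 genes and 0.045 over all genes, and 20 of 43 differences were positive. In 3 genes both pregnancy arrays lay above both pre-pregnancy arrays and in 9 both lay below, against 33.6% and 26% of all genes. The 9 were Cdk1, Cks2, Melk, Top2a, Ncaph, Ttk, Mad2l1, Ndc80 and Ect2. The call of Mad2l1 depended on single arrays, and calls over all genes became fewer with any array left out. The median difference was -0.37 without pregnancy replicate 1 and 0.37 without pregnancy replicate 2. The sign of the median thus turned with which of the pregnancy livers was kept.

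**Figure D3:**
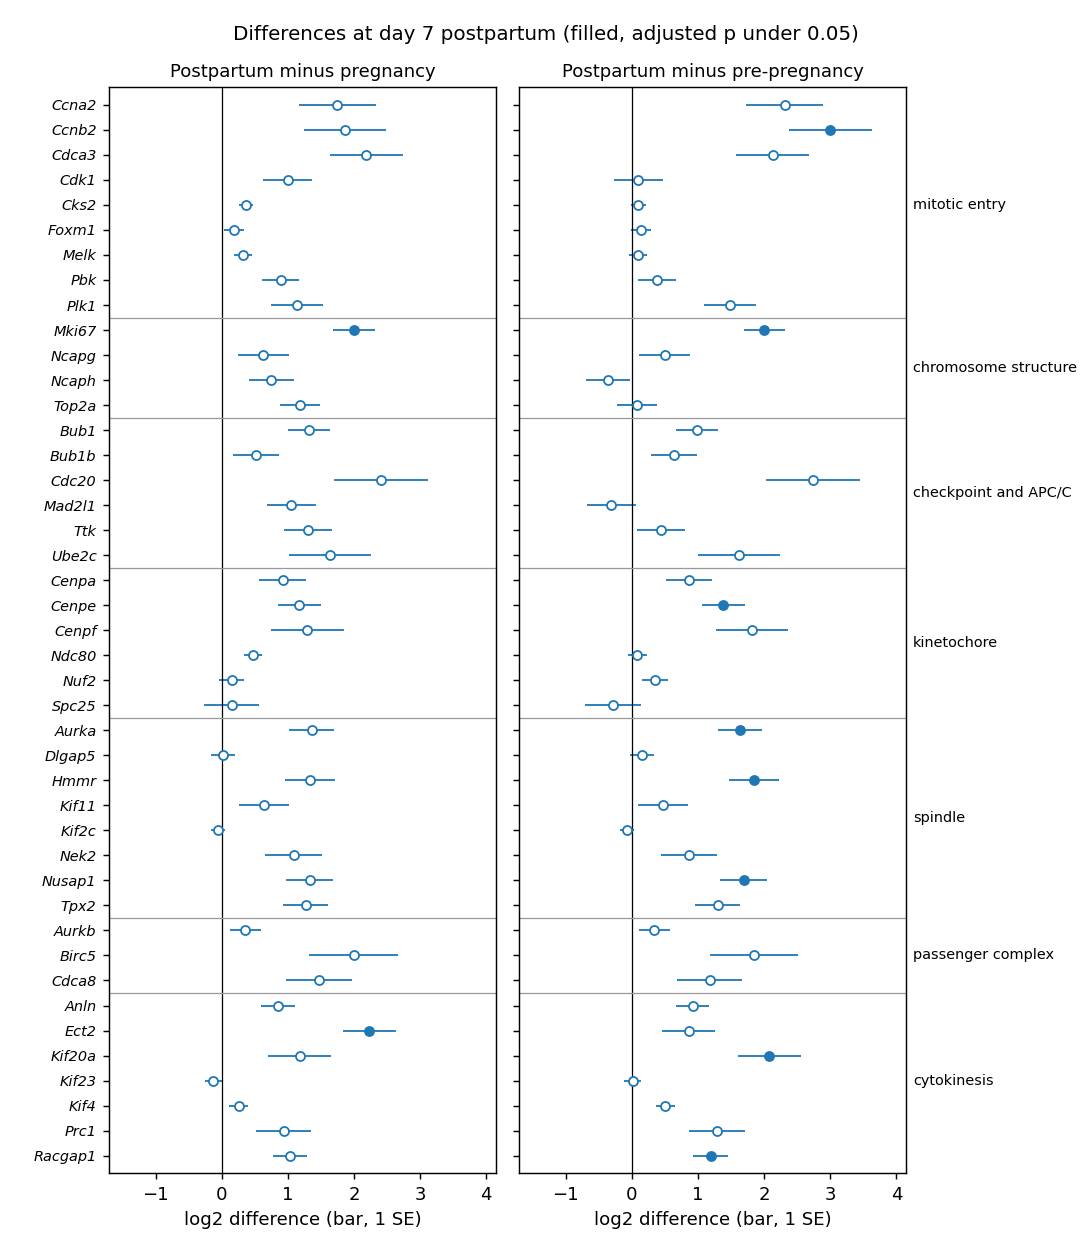
Log2 difference (horizontal axis) of each of the 43 genes at day 7 postpartum, against day 21 of pregnancy (left) and against pre-pregnancy (right); bars are 1 moderated SE and filled points passed an adjusted p of 0.05. Most points lie right of 0, with medians of 1.055 and 0.865, and 2 and 8 points are filled.

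Many genes of mitosis are known to share promoter elements: the cell cycle genes homology region (CHR), with the letters TTTGAA, which the DREAM and MuvB complexes bind, and CCAAT boxes, which NF-Y binds. RefSeq promoters (GRCm38.p6) from 250 bases before to 50 bases after the annotated start were at hand for 37 of the 44 genes; those of Aurkb, Ccna2, Dlgap5, Foxm1, Kif20a, Pbk and Tpx2 are not used here. Both motifs were searched on either strand. The CHR motif was found in 26 of 37 promoters (70.3%), against 18.1% of 27025 promoters of all genes. The CCAAT box was found in 28 (75.7%), against 37.9%, and both in 23 (62.2%), against 7.12%. The motifs were also frequent in 74 promoters of a wider list of mitosis genes outside the 44, described below. There the CHR motif was found in 50%, the CCAAT box in 60.8% and both in 36.5%. The 32 CHR matches centred near the start, with a median position of 3 bases after it, and 25 of them lay no more than 50 bases upstream or within the transcribed part. The 68 matches of the CCAAT box lay further upstream, with a median position of -65. A match is a description of letters and not a bound site.

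**Figure D4:**
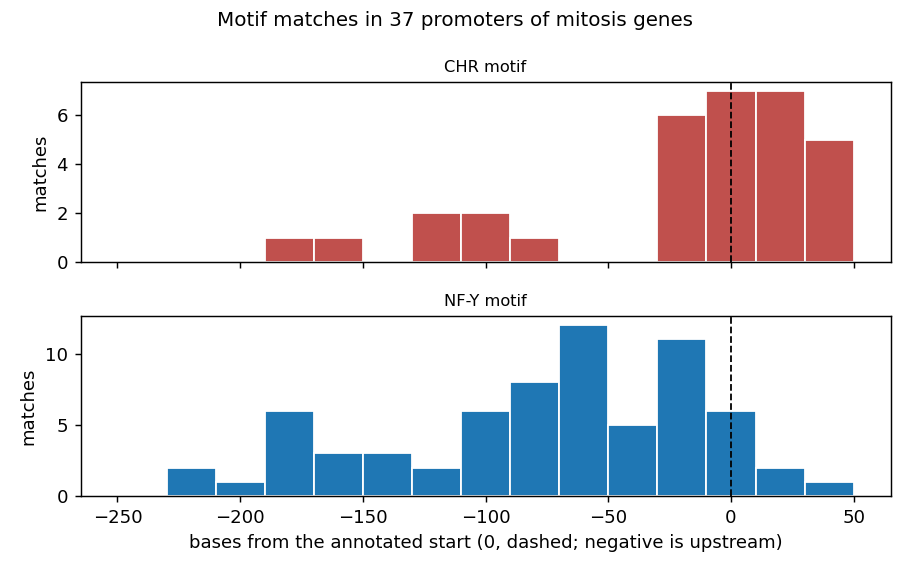
Positions of the CHR motif (32 matches, upper panel) and the NF-Y motif (68 matches, lower panel) in 37 promoters of mitosis genes, in bases from the annotated start (horizontal axis, negative is upstream), against the number of matches (vertical axis). Medians are 3 and -65.

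The promoters of the called genes are shown, since these genes passed the test in at least 1 comparison; 9 of the 10 were in the table. Each runs 5′ to 3′ on the gene's own strand from 150 bases before the start to 50 after it, in GRCm38.p6 coordinates from RefSeq. Capitals mark the CHR motif and the CCAAT box, which reads ATTGG where it lies on the other strand.
Ccnb2 (chr9:70421505-70421704, minus strand): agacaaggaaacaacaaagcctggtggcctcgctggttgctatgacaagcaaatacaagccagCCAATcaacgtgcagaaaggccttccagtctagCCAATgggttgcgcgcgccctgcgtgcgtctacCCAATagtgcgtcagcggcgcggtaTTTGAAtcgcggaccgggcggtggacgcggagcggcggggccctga
Mki67 (chr7:135716330-135716529, minus strand): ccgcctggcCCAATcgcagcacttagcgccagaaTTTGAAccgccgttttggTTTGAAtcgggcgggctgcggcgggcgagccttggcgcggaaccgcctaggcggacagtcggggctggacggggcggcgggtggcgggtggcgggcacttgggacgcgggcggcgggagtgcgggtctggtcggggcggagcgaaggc
Mad2l1 (chr6:66535071-66535270, plus strand): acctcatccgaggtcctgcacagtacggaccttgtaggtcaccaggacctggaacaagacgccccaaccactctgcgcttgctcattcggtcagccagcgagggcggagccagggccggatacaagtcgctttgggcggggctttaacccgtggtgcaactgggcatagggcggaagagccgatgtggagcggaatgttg
Cenpe (chr3:135212413-135212612, plus strand): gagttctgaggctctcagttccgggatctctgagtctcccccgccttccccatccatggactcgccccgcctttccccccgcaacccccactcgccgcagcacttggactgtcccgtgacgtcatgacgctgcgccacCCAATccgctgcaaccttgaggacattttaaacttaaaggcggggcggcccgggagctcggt
Aurka (chr2:172370521-172370720, minus strand): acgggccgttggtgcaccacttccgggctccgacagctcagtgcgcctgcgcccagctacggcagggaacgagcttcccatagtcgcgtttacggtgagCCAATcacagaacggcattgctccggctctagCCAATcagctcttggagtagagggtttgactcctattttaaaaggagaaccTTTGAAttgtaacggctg
Nusap1 (chr2:119618148-119618347, plus strand): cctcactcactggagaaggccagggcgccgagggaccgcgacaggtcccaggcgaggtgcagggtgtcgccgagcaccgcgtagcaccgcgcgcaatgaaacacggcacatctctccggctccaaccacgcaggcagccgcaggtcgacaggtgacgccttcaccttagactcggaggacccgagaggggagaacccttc
Hmmr (chr11:40733388-40733587, minus strand): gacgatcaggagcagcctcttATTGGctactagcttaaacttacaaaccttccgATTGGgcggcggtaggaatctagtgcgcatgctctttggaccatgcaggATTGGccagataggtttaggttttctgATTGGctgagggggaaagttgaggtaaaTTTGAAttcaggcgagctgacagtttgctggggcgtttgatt
Ect2 (chr3:27153829-27154028, minus strand): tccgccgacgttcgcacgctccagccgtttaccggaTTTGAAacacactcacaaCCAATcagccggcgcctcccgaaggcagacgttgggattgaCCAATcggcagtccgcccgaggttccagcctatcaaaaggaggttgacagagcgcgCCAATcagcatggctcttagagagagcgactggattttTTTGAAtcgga
Racgap1 (chr15:99651607-99651806, minus strand): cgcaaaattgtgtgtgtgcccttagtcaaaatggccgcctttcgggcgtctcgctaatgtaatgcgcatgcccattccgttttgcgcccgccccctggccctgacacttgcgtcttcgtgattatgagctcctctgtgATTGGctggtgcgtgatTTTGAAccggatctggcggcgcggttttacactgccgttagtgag
Of these 9 windows, 6 hold the CHR motif, 7 hold a CCAAT box and 6 hold both, while those of Mad2l1 and Nusap1 hold neither. In Ccnb2, Hmmr and Racgap1 the CHR motif begins 4, 8 and 5 bases after the start, and in Aurka 32 bases after it. Mki67 carries its pair of matches upstream, at -116 and -98. Among the measured genes with a promoter in the table, the median difference postpartum minus pre-pregnancy was 0.895 in the 26 with the CHR motif, 5 of them called, and 0.61 in the 10 without, 2 of them called; this difference was not tested.

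Among the genes of mitotic entry, the kinases, cyclins and regulators that commit a cell to divide, 9 were measured and 1 (Ccnb2) was called postpartum against pre-pregnancy. Ccnb2, a B-type cyclin that activates Cdk1, had log2 levels of 4.77 and 4.77 in the pre-pregnancy livers, 7.01 and 4.80 at day 21, and 7.25 and 8.29 postpartum. Both postpartum arrays lay above all others, and the pregnancy livers were far apart, one near the postpartum level and one near the pre-pregnancy level. The difference was 3.0 ± 0.626 postpartum against pre-pregnancy (SE, n = 2 each; limma adjusted p = 0.030), the largest of the 43 genes in that comparison. Ccna2, the A-type cyclin, read 6.22 and 5.97 in the pre-pregnancy livers, 7.63 and 5.69 at day 21, and 7.83 and 8.98 postpartum. Its difference postpartum against pre-pregnancy, 2.31 ± 0.582, missed the threshold (limma adjusted p = 0.053), although the postpartum arrays were above all others. Cdca3, which promotes the degradation of the Cdk1 inhibitor Wee1, read 6.21 and 6.24, then 7.10 and 5.24, then 7.81 and 8.90 over the same arrays. It too was above all others postpartum, by 2.13 ± 0.554 against pre-pregnancy (limma adjusted p = 0.059). On the 2 other, dimmer probe sets of Cdca3 that difference was 0.02 and 0.12. Plk1, the polo-like kinase of centrosome maturation and mitotic entry, read 5.71 and 6.06 in the pre-pregnancy livers, 6.76 and 5.69 at day 21, and 6.87 and 7.86 postpartum.

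Cdk1, the kinase that drives mitosis, had another pattern, at 7.77 and 7.34 in the pre-pregnancy livers, 7.20 and 6.11 at day 21, and 7.25 and 8.06 postpartum. Both pregnancy arrays lay below both pre-pregnancy arrays, and the postpartum arrays overlapped with the pre-pregnancy ones. Its differences were -0.90 ± 0.373 in pregnancy against pre-pregnancy and 0.10 ± 0.373 postpartum against pre-pregnancy (SE, n = 2 each), neither of them called. Foxm1, the transcription factor of many genes of the late cell cycle, stayed between 5.85 and 6.31 on the probe set used, highest on postpartum replicate 2. Its 3 other probe sets gave differences postpartum against pre-pregnancy of -0.12 to 0.66, where the one used gave 0.135. Cks2, a small subunit that binds Cdk1, was highest on postpartum replicate 1 at 10.48, and the kinase Melk lay between 3.99 and 4.48, where arrays have little range above background. Pbk, a mitotic kinase, was lowest on pregnancy replicate 2 at 5.50 and highest on postpartum replicate 2 at 7.10. The median over the 9 genes was 1.00 postpartum against pregnancy, and against pre-pregnancy it was 0.38.

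Of the 4 genes of mitotic chromosome structure, Mki67 was called postpartum in both comparisons. Its protein Ki-67 coats mitotic chromosomes and is the usual marker of cycling cells. It read 6.41 and 6.38 in the pre-pregnancy livers, 6.94 and 5.86 at day 21, and 8.15 and 8.65 postpartum. The postpartum arrays stood more than 1 log2 unit above every other array. Postpartum it was higher by 2.00 ± 0.316 than in pregnancy and by 2.005 ± 0.316 than before it (SE, n = 2 each; limma adjusted p = 0.020 and 0.013), 4.0-fold and 4.01-fold. Pregnancy against pre-pregnancy gave 0.005 ± 0.316 (limma adjusted p = 0.996), a value whose sign turned under 3 other settings.

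The other chromosome genes did not share this. Top2a, the topoisomerase that untangles sister chromatids, read 6.91 and 6.54 in the pre-pregnancy livers, 6.14 and 5.12 at day 21, and 6.65 and 6.97 postpartum. Both pregnancy arrays were below both pre-pregnancy arrays, with a difference of -1.095 ± 0.302 that missed the threshold (limma adjusted p = 0.051), and the postpartum arrays overlapped with the pre-pregnancy ones. On the 2 other, dimmer probe sets of Top2a the difference in pregnancy against pre-pregnancy was 0.225 and 0.235. Ncaph, a condensin I subunit, read 6.61 and 6.17 in the pre-pregnancy livers, 5.85 and 4.71 at day 21, and 5.84 and 6.22 postpartum, and was likewise lower on both pregnancy arrays than before pregnancy. Ncapg, another condensin I subunit, overlapped between all stages, at 4.73 and 4.05 in the pre-pregnancy livers, 4.64 and 3.88 at day 21, and 4.36 and 5.42 postpartum. The median over the 4 genes was 0.29 postpartum against pre-pregnancy, the lowest of the 7 roles.

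Of the 6 genes of the spindle checkpoint and the anaphase-promoting complex, Mad2l1 was called in pregnancy and 0 were called in either postpartum comparison. Mad2l1 read 8.85 and 8.38 in the pre-pregnancy livers, 7.87 and 6.63 at day 21, and 8.05 and 8.56 postpartum. It was lower on both pregnancy arrays than on any other, and the postpartum arrays overlapped with the pre-pregnancy ones. The difference in pregnancy against pre-pregnancy was -1.365 ± 0.372 (SE, n = 2 each; limma adjusted p = 0.049), and the adjusted p ranged between 0.0086 and 0.276 when single arrays were left out, with the call kept in 1 of 6 such fits. Ttk, the checkpoint kinase Mps1, read 5.24 and 4.91 in the pre-pregnancy livers, 4.68 and 3.75 at day 21, and 5.03 and 6.01 postpartum, again lower on both pregnancy arrays. Cdc20, the activator of the anaphase-promoting complex, read 6.83 and 6.81 in the pre-pregnancy livers, 8.35 and 5.96 at day 21, and 8.85 and 10.28 postpartum. Its pregnancy livers lay on both sides of the pre-pregnancy level, and the postpartum arrays were above all others. With 2.745 ± 0.712 postpartum against pre-pregnancy, Cdc20 had a difference next in size to that of Ccnb2 but missed the threshold (limma adjusted p = 0.058).

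Ube2c, the ubiquitin-conjugating enzyme of the same complex, read 6.92 and 6.73 in the pre-pregnancy livers, 7.88 and 5.74 at day 21, and 7.88 and 9.01 postpartum, so that one pregnancy array equalled the lower postpartum one. Bub1, a checkpoint kinase at the kinetochore, read 4.13 and 4.10 in the pre-pregnancy livers, 4.10 and 3.45 at day 21, and 4.60 and 5.60 postpartum. Its postpartum arrays lay above all others. Bub1b, the checkpoint protein BubR1, read 4.48 and 4.74, then 5.0 and 4.46, then 4.66 and 5.84 over the same arrays, and the stages overlapped. The median over the 6 genes was 1.315 postpartum against pregnancy, and against pre-pregnancy it was 0.81.

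Among the 6 kinetochore and centromere genes, Cenpe was called postpartum against pre-pregnancy. Cenpe, the kinesin that moves chromosomes to the middle of the spindle, read 4.09 and 4.23 in the pre-pregnancy livers, 4.66 and 4.08 at day 21, and 5.01 and 6.08 postpartum. Both postpartum arrays lay above all others. The difference was 1.385 ± 0.325 (SE, n = 2 each; limma adjusted p = 0.044). Cenpf, a large kinetochore protein of late G2 and mitosis, read 4.88 and 4.89 in the pre-pregnancy livers, 6.18 and 4.63 at day 21, and 5.97 and 7.43 postpartum. Pregnancy replicate 1 exceeded postpartum replicate 1, and its difference postpartum against pre-pregnancy of 1.815 ± 0.548 was not called. Cenpa, the centromeric histone, read 7.52 and 7.33 in the pre-pregnancy livers, 7.96 and 6.79 at day 21, and 8.0 and 8.59 postpartum, where postpartum replicate 1 exceeded pregnancy replicate 1 by a small step.

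Ndc80, Nuf2 and Spc25 are parts of the Ndc80 complex, which holds spindle microtubules at the kinetochore, and their stages lay close together or overlapped. Ndc80 stayed between 4.33 and 5.02 and Nuf2 between 4.58 and 5.23. Spc25 read 8.86 and 8.18 in the pre-pregnancy livers, 8.76 and 7.41 at day 21, and 7.94 and 8.53 postpartum. The median over the 6 genes was 0.70 postpartum against pregnancy, and against pre-pregnancy it was 0.61.

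The spindle genes held 3 of the 8 calls postpartum against pre-pregnancy: Aurka, Hmmr and Nusap1. Aurka, the kinase of centrosomes and spindle poles, read 5.70 and 5.64 in the pre-pregnancy livers, 6.34 and 5.55 at day 21, and 6.80 and 7.81 postpartum. Hmmr, a protein of spindle poles and microtubules, read 5.37 and 5.24 in the pre-pregnancy livers, 6.38 and 5.26 at day 21, and 6.71 and 7.60 postpartum. Nusap1, which bundles spindle microtubules, read 4.78 and 4.84 in the pre-pregnancy livers, 5.78 and 4.56 at day 21, and 6.21 and 6.79 postpartum. In all 3 the postpartum arrays lay above all others, and pregnancy replicate 1 lay between them and the pre-pregnancy arrays. Their differences postpartum against pre-pregnancy were 1.635 ± 0.339 for Aurka, 1.85 ± 0.376 for Hmmr and 1.69 ± 0.355 for Nusap1 (SE, n = 2 each; limma adjusted p = 0.029, 0.028 and 0.031). Tpx2, which activates Aurka on the spindle, read 4.24 and 4.14 in the pre-pregnancy livers, 4.48 and 3.95 at day 21, and 4.90 and 6.07 postpartum, a difference of 1.295 ± 0.340 that missed the threshold (limma adjusted p = 0.061).

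In the remaining spindle genes the postpartum arrays did not lie clear of all the others. Nek2, a kinase of centrosome separation, read 7.27 and 7.11 in the pre-pregnancy livers, 7.62 and 6.31 at day 21, and 7.56 and 8.55 postpartum. Kif11, the kinesin that pushes spindle poles apart, read 4.89 and 4.70 in the pre-pregnancy livers, 5.12 and 4.14 at day 21, and 4.74 and 5.80 postpartum. Dlgap5, a microtubule protein of the spindle, lay between 4.42 and 4.89. Kif2c, a kinesin that takes microtubules apart at the centromere, stayed between 6.08 and 6.25 on the probe set used. Other probe sets for Kif2c gave differences postpartum against pre-pregnancy of 0.14 to 1.43, where the one used gave -0.075. The median over the 8 spindle genes was 1.18 postpartum against pregnancy, and against pre-pregnancy it was 1.08.

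The chromosomal passenger complex, which corrects faulty attachments and then moves to the midzone of the dividing cell, had 3 measured members and 0 calls. Birc5 (survivin), which brings the complex to centromeres, read 5.70 and 5.50 in the pre-pregnancy livers, 6.55 and 4.35 at day 21, and 6.74 and 8.15 postpartum. Cdca8 (borealin) read 6.74 and 6.63 in the pre-pregnancy livers, 7.22 and 5.55 at day 21, and 7.39 and 8.33 postpartum. In both genes the postpartum arrays were above all others, and pregnancy replicate 2 was below all others by more than 1 log2 unit. Their differences postpartum against pre-pregnancy were 1.845 ± 0.670 for Birc5 and 1.175 ± 0.495 for Cdca8, and neither passed the test (limma adjusted p = 0.146 and 0.207). Aurkb, the kinase of the complex, read 4.49 and 4.20 in the pre-pregnancy livers, 4.37 and 4.28 at day 21, and 4.28 and 5.09 postpartum, with postpartum replicate 2 as the highest.

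Of the 7 cytokinesis genes, Kif20a and Racgap1 were called postpartum against pre-pregnancy and Ect2 postpartum against pregnancy. Ect2 read 6.40 and 6.43 in the pre-pregnancy livers, 5.78 and 4.31 at day 21, and 7.05 and 7.50 postpartum. It was lower on both pregnancy arrays than before pregnancy and higher on both postpartum arrays than on any other. Its difference postpartum against pregnancy was 2.23 ± 0.401 (SE, n = 2 each; limma adjusted p = 0.031), or 4.69-fold, and pregnancy against pre-pregnancy gave -1.37 ± 0.401 (limma adjusted p = 0.061). Racgap1, which forms the centralspindlin complex and recruits Ect2 to the midzone, read 5.06 and 4.73 in the pre-pregnancy livers, 5.32 and 4.78 at day 21, and 5.73 and 6.44 postpartum. Kif20a, a kinesin of the midzone, read 4.89 and 4.75 in the pre-pregnancy livers, 6.34 and 5.10 at day 21, and 6.23 and 7.57 postpartum. Racgap1 was above all others postpartum, while for Kif20a pregnancy replicate 1 exceeded postpartum replicate 1. The differences postpartum against pre-pregnancy were 1.19 ± 0.259 for Racgap1 and 2.08 ± 0.473 for Kif20a (limma adjusted p = 0.034 and 0.040).

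Kif23, the kinesin partner of Racgap1 in centralspindlin, did not share this, with 5.45 and 5.31 in the pre-pregnancy livers, 5.37 and 5.67 at day 21, and 5.39 and 5.40 postpartum. Prc1, which bundles midzone microtubules, read 5.60 and 5.66 in the pre-pregnancy livers, 6.52 and 5.44 at day 21, and 6.32 and 7.51 postpartum. Anln (anillin), a scaffold of the contractile ring, read 4.80 and 4.28 in the pre-pregnancy livers, 4.91 and 4.30 at day 21, and 5.23 and 5.69 postpartum. Both were higher on the postpartum arrays than before pregnancy without passing the test, by 1.285 ± 0.418 and 0.92 ± 0.253 (limma adjusted p = 0.109 and 0.069). Kif4, a chromosome-bound kinesin that also acts at the midzone, lay between 5.38 and 6.10. The median over the 7 genes was 0.935 postpartum against pregnancy, and against pre-pregnancy it was 0.92. No difference between roles was tested.

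**Figure D5:**
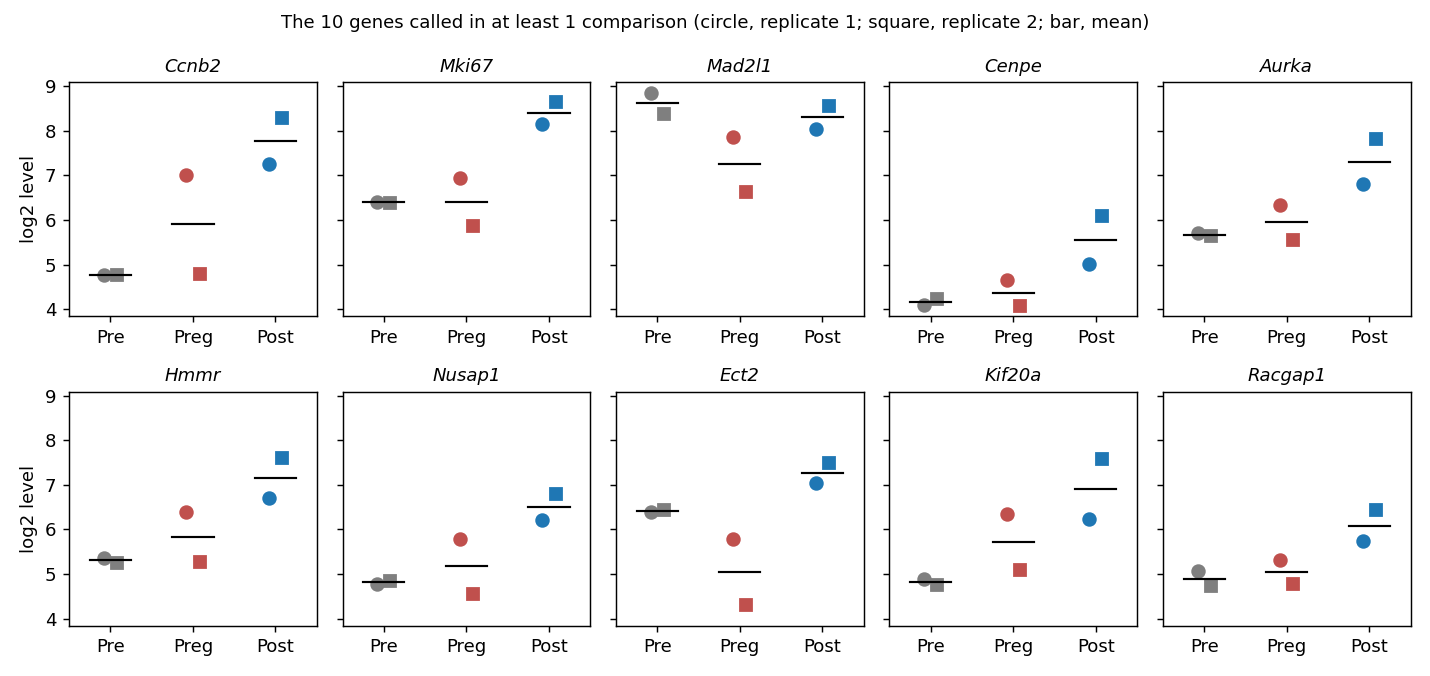
Log2 level (vertical axis) of the 10 genes called in at least 1 comparison, by stage (horizontal axis); circles are replicate 1, squares replicate 2 and bars the mean. In pregnancy the circle lies above the square in all 10 genes, and postpartum the square lies above the circle.

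Probe sets of the same gene did not always move alike. Of the 43 genes, 29 had more than 1 probe set, and all the others had the sign of the one used in 20 genes postpartum against pre-pregnancy, in 13 postpartum against pregnancy and in 14 in pregnancy against pre-pregnancy. Ccnb2, Mki67, Kif20a, Ect2 and Mad2l1 had 1 probe set each. The other called genes had 9 further probe sets with means between 3.03 and 4.36, among the dimmer values of the array. On those, the difference postpartum against pre-pregnancy was 0.275 for Aurka, 0.24 for Nusap1, 0.36 for Cenpe, 0.10 to 1.37 for Hmmr and -0.08 to 1.52 for Racgap1. Of the 43 genes, 16 had a mean under the 40th percentile of all genes, 5.51, where RMA compresses differences. The called genes Cenpe, Nusap1 and Racgap1 are among these.

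A wider list of genes of mitosis outside the 44 had 87 measured. In pregnancy against pre-pregnancy 20 of 87 (23%) were lower and 1 (Cdca2) higher, beside 8.25% and 5.46% of all genes. Cenpk, of the centromere's constitutive network, had the largest difference, -1.92 ± 0.298 (SE, n = 2 each), and the condensin subunits Smc2 and Ncapg2 had -1.75 and -1.72. Trip13, an ATPase that takes apart checkpoint complexes, had -1.735, the checkpoint protein Zwilch -1.65 and the Ndc80 complex subunit Spc24 -1.61. By role, the 20 were 5 of entry, 3 of chromosome structure, 8 of kinetochore and checkpoint, 2 of the spindle and 2 of cytokinesis. Spc24 read 6.26 and 5.43 in pregnancy, against 7.60 and 7.31 before pregnancy, with no overlap. Fewer genes of the list were called without pre-pregnancy replicate 1, as held for all genes.

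Postpartum against pregnancy, 6 of the 87 (6.9%) were higher and 0 lower, beside 2.41% and 0.879% of all genes. The 6 were Spc24, Cks1b, Sgo1, Cep192, Septin9 and Cdc25a, higher by 1.58, 1.445, 0.92, 0.88, 0.715 and 0.69. Cks1b, a Cdk-binding subunit, read 10.11 and 10.73 postpartum, against 9.0 and 8.95 in pregnancy. These calls, too, depended on single arrays. Postpartum against pre-pregnancy, 5 (5.75%) were higher and 7 (8.05%) lower, beside 3.91% and 3.75% of all genes, so the share of higher genes lies near that of all genes. Cdkn3, a phosphatase that acts on Cdk, was the highest at 2.245 ± 0.419, with 6.45 and 7.53 postpartum, against 4.98 and 4.51 before pregnancy. The lower genes included Lin9, a MuvB subunit (-1.34), Cenpk (-1.295), the Cdk1-inhibiting kinase Wee1 (-1.20), Ncapg2 (-1.14) and the centromere factor Mis18a (-1.04). Wee1 read 7.49 and 7.87 postpartum, against 9.0 and 8.76 before pregnancy. Calls in this list ran both ways in that comparison and depended on single arrays.

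Markers of the cell types of the liver were read beside these results. Of 8 measured erythroid markers, 0 were called in any comparison. Alas2, the brightest, read 7.67 and 7.33 before pregnancy, then 7.59 and 7.54, then 7.20 and 7.38 postpartum. The summed linear level of the 8 was 588 and 534 before pregnancy, then 562 and 609 in pregnancy, then 536 and 522 postpartum. Postpartum against pregnancy 7 of the 8 were lower and 1 higher. In 4 of them both postpartum arrays lay below both pregnancy arrays, against 25% of all genes. Of 10 lymphocyte markers, Ms4a1 was lower postpartum than before pregnancy, and their sum was 363 and 400 postpartum, against 392 and 390. Of 8 neutrophil markers, S100a9 and Mpo were called higher in pregnancy than before it, and S100a9 was called lower postpartum than in pregnancy. In all 8, both pregnancy arrays lay above both pre-pregnancy arrays, against 33.6% of all genes. In all 8, both postpartum arrays lay below both pregnancy arrays, against 25% of all genes. The sum over the 8 was 582 and 568 before pregnancy, then 1373 and 734 in pregnancy, then 503 and 582 postpartum. Its high value on pregnancy replicate 1 came mostly from Lcn2, at 9.96 on the log2 scale there and 8.41 on pregnancy replicate 2.

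Of 11 Kupffer cell markers, Timd4 and Lyz2 were called lower in pregnancy than before it, and postpartum Marco was called higher and Timd4 lower than before pregnancy. Both pregnancy arrays lay below both pre-pregnancy arrays in 7 of the 11 and above both in 1, against 26% and 33.6% of all genes. Postpartum against pregnancy, 11 of the 11 were higher and 0 lower, with 0 called. In 6 of them both postpartum arrays lay above both pregnancy arrays, against 25.1% of all genes. Pregnancy replicate 1 exceeded replicate 2 in all 11, as in most mitosis genes, with a median gap of 0.34 beside 0.02 over all genes. The sum over the 11 was 10301 and 10749 before pregnancy, then 9890 and 7958 in pregnancy, then 10397 and 11023 postpartum. Of 12 endothelial markers, Kdr, Tek and Emcn were called lower in pregnancy than before it. In 9 of the 12 both pregnancy arrays lay below both pre-pregnancy arrays, against 26% of all genes. In 10 both postpartum arrays did so, against 22.6%, and 0 lay above in either comparison. The sum over the 12 was 6992 and 5688 before pregnancy, then 4950 and 4894 in pregnancy, then 4852 and 4569 postpartum. Of 10 stellate cell markers, Lrat was lower in pregnancy, with sums of 5619 and 5336 before it, then 4978 and 4928 in it, then 4902 and 4148 postpartum. Of 5 bile duct markers 0 were called, though Krt19 read 7.07 on postpartum replicate 1, against 4.77 to 5.37 on the other arrays. The 8 measured hepatocyte markers had a median log2 level between 14.08 and 14.24 on every array. This is near the top of the range, as the highest value of any probe set was 14.91 to 15.05 per array. The hepatocyte sum varied between 150442 and 162265, and Apob was called higher in pregnancy and postpartum than before. The same sum over the 43 mitosis genes was 4716 and 4168 before pregnancy, then 5269 and 2794 in pregnancy, then 6028 and 10027 postpartum. The part of these cell types in the results was not tested.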

How the data were processed

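Whole-liver RNA (250 ng) was biotin-labelled by a 3' IVT procedure and hybridised to Affymetrix mouse arrays, per the labels' protocols. The deposited values are log2 levels of 45101 probe sets made with RMA and Affymetrix Power Tools, per the submitters' processing notes; the log2 base was inferred from the values, and no detection flags were at hand. Stages were taken from the labels. Of the probe sets, 34945 had 1 gene symbol, 932 several, 9160 none and 64 were controls, which leaves 18193 genes, 9010 of them with several probe sets. Differences between stages were fitted over all 6 arrays by lmFit and eBayes of limma (version 3.58.1, R version 4.3.3; 3 residual and 4.80 prior degrees of freedom; two-sided), with Benjamini-Hochberg adjustment over all genes and a threshold of 0.05. SE is the moderated standard error. The number of arrays limits the precision. The tests were checked on simulated data in which each gene varied independently. That check therefore does not cover counts of genes that move together, as these members did.

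The members and lists were chosen with earlier results of these data known. All measured members are named, most with every array's level and the rest with a range or extreme; of the wider list, the 6 largest called differences of each comparison are named. Adjusted p-values of members that missed the threshold were chosen for printing, and Cdca2 and the called cell markers named, after their values were seen. The alternatives were a replicate block, repeated quantile normalization, centring arrays on their medians, leaving out dim genes, averaging a gene's probe sets, a trended and robust variance, fitting the 2 stages compared, a threshold of 0.1 and leaving out each array.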

Additional observations from a re-analysis of the deposited data

How the results depend on the processing

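With 2 arrays per stage, most calls depended on single arrays. Leaving out 1 array, whose stage is then assumed to vary like the others, gave 0 to 7 called members in pregnancy against pre-pregnancy (1 with all arrays), 0 to 17 postpartum against pregnancy (2 with all) and 0 to 19 postpartum against pre-pregnancy (8 with all). The wider list gave 4 to 26 (21 with all), 1 to 13 (6) and 0 to 17 (12). The member median ran between -0.37 and 0.37, 0.52 and 1.535, and 0.485 and 1.165 in the 3 comparisons. In pregnancy against pre-pregnancy the member count was 2 with a replicate block, 2 without dim genes, 4 at a threshold of 0.1, and 0 with repeated quantile normalization, averaged probe sets, a trended and robust variance or only the 2 stages fitted. Postpartum against pregnancy it was 0 with the trended variance or 2 stages and 10 at 0.1; averaging probe sets gave a median of 0.60. Postpartum against pre-pregnancy it was 5 without dim genes, where the called genes Cenpe, Nusap1 and Racgap1 were not tested. It was 2 with the trended variance, 19 with 2 stages and 16 at 0.1. The wider list gave 9 postpartum against pregnancy with the replicate block, 1 with 2 stages and 13 at 0.1, and 7 postpartum against pre-pregnancy without dim genes. Of 29 calls of named genes over the 3 comparisons, 29 stayed called with the replicate block; replicate numbers share deviations little between stages over all genes (r of 0.03 for pre-pregnancy and pregnancy, -0.03 for pregnancy and postpartum, 0.11 for pre-pregnancy and postpartum; 0.03, -0.63 and 0.16 over the members), so they are not taken as pairs. The difference of Mki67 in pregnancy against pre-pregnancy ran between -0.535 and 0.545 with single arrays left out (-0.01 when pre-pregnancy replicate 2 was dropped) and was -0.03 with centred arrays. None (0) of the 29 calls changed direction under any alternative run. The causes were not tested.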

Other observations

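Outside the lists, the genes whose profile over the 6 arrays was most like the mean profile of the members were sought among 1256 genes that varied by at least 1 log2 unit and were bright enough. The first 10 were Stmn1, Neurl1b, Arhgef19, Trip6, Tubb4b, Slc30a10, Lin37, Knstrn, Ppl and Fcna, with Pearson correlations of 0.996 to 0.912 over 6 arrays, given as a description. Stmn1 (stathmin), which destabilises microtubules, read 8.65 and 8.62 in the pre-pregnancy livers, 9.23 and 7.75 at day 21, and 9.63 and 10.68 postpartum. Tubb4b, a beta-tubulin, read 10.33 and 10.41 in the pre-pregnancy livers, 10.37 and 9.93 at day 21, and 11.07 and 11.54 postpartum. As these genes were chosen by their profile over the same arrays, their levels are a description with no test. Knstrn, a spindle and kinetochore protein, read 5.78 and 5.70 in the pre-pregnancy livers, 6.27 and 5.71 at day 21, and 6.19 and 7.67 postpartum. Lin37, a MuvB subunit, read 6.34 and 6.00 in the pre-pregnancy livers, 6.49 and 6.17 at day 21, and 6.56 and 7.03 postpartum.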
